A study of Mus musculus with 6 samples.

Results

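The 3 wild type libraries are the reference group of a mouse study of 6 RNA sequencing libraries. They were taken by genotype label alone, 3 of the 6 samples, and no genotype comparison was made. Each holds total RNA of LK cells, c-Kit-positive bone marrow cells sorted as lacking lineage markers, from C57BL/6 mice aged 8 to 12 weeks. These mice are littermates of ASXL1-MT-KI mice and carry the wild type genotype. The labels speak of biologically independent experiments and do not say whether 1 animal or several gave a library, nor which antibodies defined lineage-negative. The libraries are numbered 1 to 3 as in the sample titles, and values given as a series of 3 stand in that order.

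The LK gate holds the blood-forming progenitors of the marrow. c-Kit is the receptor for stem cell factor and is lost as most lineages mature, so the gate keeps stem cells, common myeloid progenitors, granulocyte and monocyte progenitors, and megakaryocyte and erythroid progenitors while mature blood cells are removed. Lineage choice in these cells is set by transcription factors: PU.1 and C/EBP alpha drive the granulocyte and monocyte fate, GATA1 and KLF1 the red cell fate, and GATA2 and RUNX1 act in the cells before that choice. Granulocyte progenitors fill their first, primary granules with proteases and myeloperoxidase before they make secondary granules. In such a bulk sample, fewer cells of a type and less RNA per cell cannot be told apart.

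The authors deposited raw counts for 24421 gene symbols, and the libraries held 47242076, 46875571 and 40739398 counts. A level is given in CPM, the count as a share of its library's sum per 1e6 counts, which serves to compare 1 gene between libraries. Different genes are compared in TPM, the same counts divided by the length of the gene's exons and scaled to the same fixed sum as CPM. A count of 0 allows a level of up to 0.0635, 0.0640 and 0.0736 CPM in a library, from a limit of 3 counts that covers counting error only. Library 3 stands apart from the other two. The chi-square of its counts per gene was 23.5 against library 1 and 27.6 against library 2, where libraries 1 and 2 differed by 10.7, so no pair agreed within sampling noise. Over the 13030 genes that passed edgeR's filter on low counts, the biological coefficient of variation, the spread between libraries beyond counting error, was 9.52%, and without library 3 it was 6.70%. Values of single libraries are therefore printed for the genes described, and what library 3 holds is described at the end.

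The labelled cell type was checked against its markers. All 6 genes chosen to mark LK progenitors were detected in every library, at ranks 1 to 1151 of the 24421 genes by mean CPM. Mpo, which encodes myeloperoxidase of the primary granules (chr11:87793581-87804413 on GRCm38), had the most counts of all genes, at 12923, 13399 and 14771 CPM. Elane, neutrophil elastase, reached 2021, 1912 and 2296 CPM and rank 17. Myb, a transcription factor that keeps progenitors dividing, had 801, 816 and 864 CPM and rank 120. Kit, the gene of the sort itself, had 380, 367 and 451 CPM and rank 374. Cd34, a sialomucin of stem and progenitor cells, had 351, 356 and 399 CPM and rank 421, and Gata2 had 169, 173 and 202 CPM and rank 1151. Each of the 6 was highest in library 3, and the spread over the libraries was 4.0% to 11.3% of the mean. Over all genes of the table, 47.8% had a mean of at least 1 CPM, and 45.2% of those were highest in library 3.

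The genes of other lineages and tissues served as the opposite check. None of 30 genes of liver, pancreas, brain, muscle, skin, lung, kidney and other tissues reached 1 CPM, and 16 of them had 0 counts in all 3 libraries. The highest was Pomc, the hormone precursor, at 0.910, 0.960 and 0.957 CPM. Of 11 antigens often used for lineage depletion, 7 passed 1 CPM. Cd3e of T cells (0.0212 CPM in the mean), Cd8a (0.0599 CPM) and Cd5 (0.434 CPM) were among those that did not. Ly6c2, a surface antigen of monocytes and part of the Gr-1 epitope, was abundant at 477, 489 and 455 CPM, but Ly6c2 has a close paralog, and how the authors' counting split shared reads is not given in the sources used here. Itgam, the CD11b chain of myeloid cells, had 31.8, 29.1 and 47.1 CPM and was highest in library 3. Transcripts of these myeloid antigens were thus measured in cells sorted for lacking lineage markers.

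Over the whole table, 11676 genes had a mean of at least 1 CPM, which is 47.8% of the 24421, and 6852 had no count in any library. The level of 1 CPM is used below as the mark of a detected transcript. Counts were spread widely: the 982 most abundant genes took 50% of all counts and the 100 most abundant 17.5% ± 0.223 (SD, n = 3). The 86 genes at 1000 CPM or more held 16.2% of the counts. Genes at 100 to 1000 CPM, 2439 in number, held 55.3%. After Mpo, the list by CPM was led by the translation factors Eef1a1 (13116, 12507 and 13083 CPM) and Eef2, the chaperone Hsp90ab1, the poly(A) binding protein Pabpc1 and the chaperone Hspa8. The 82 genes of cytosolic ribosomal proteins took 7.61%, 7.54% and 7.14% of the counts. Of the 27 gene lists, with 557 different genes in the table, 406 genes passed 1 CPM.

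**Figure D1:**
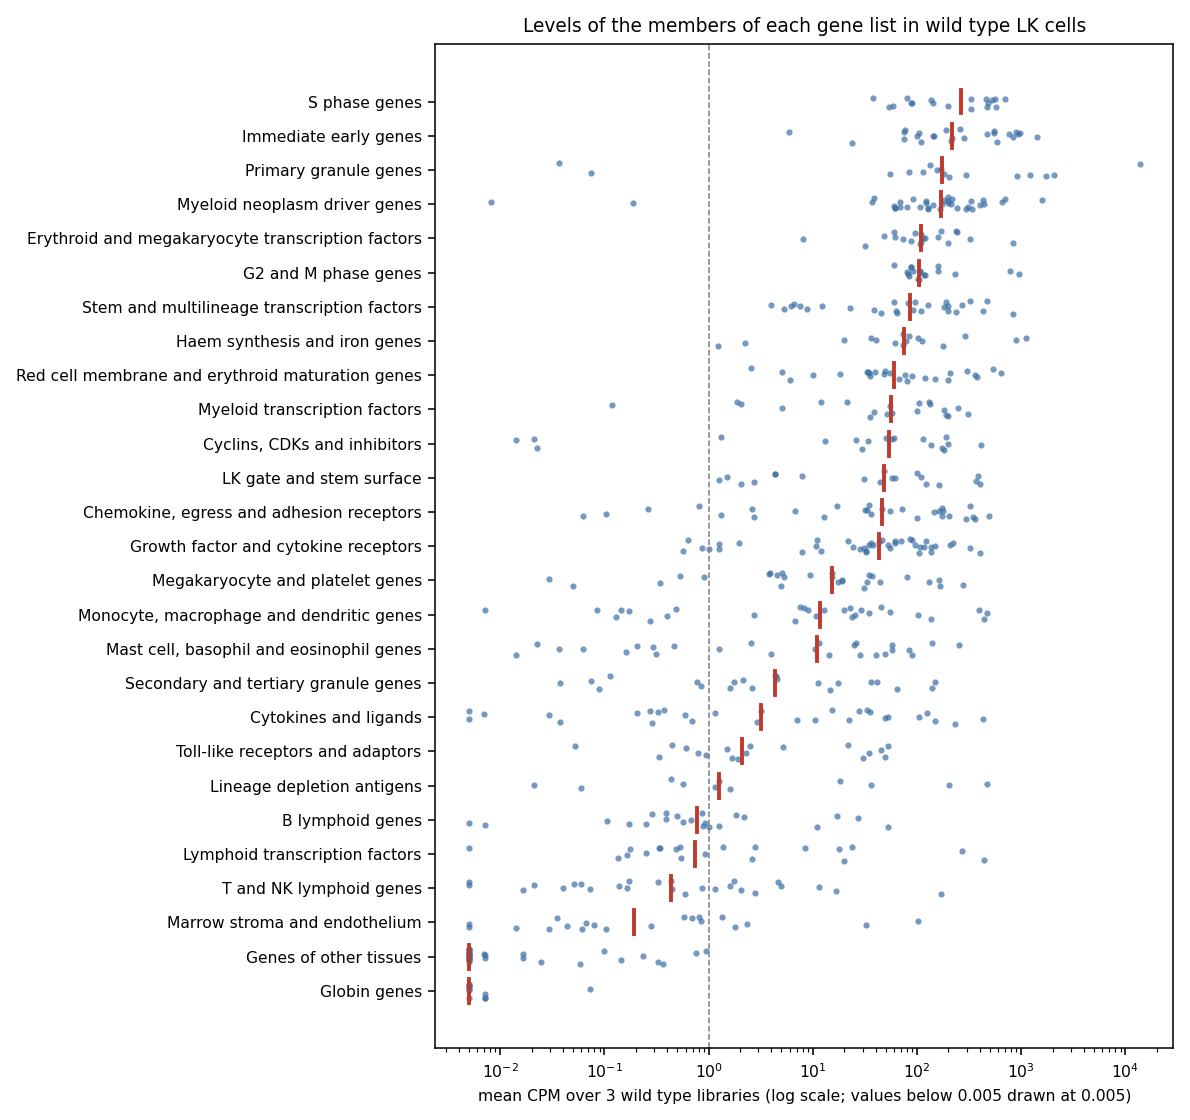
Mean CPM over the 3 wild type libraries (x axis, log scale) of every measured member of 27 gene lists, 1 point a gene, with the median of each list as a red bar and 1 CPM as a dashed line. By CPM, which carries gene length, S phase, immediate early and primary granule genes had the highest medians, at 264, 216 and 175 CPM. Per length the order of these lists was reversed, with medians of 226, 278 and 394 TPM. No gene of the globin list or of the list from other tissues reached 1 CPM.

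Among granule genes, those of primary granules had a list median of 394 TPM and those of secondary and tertiary granules 5.78 TPM, against 27.9 TPM for all genes at 1 CPM or more. Of 16 primary granule genes, 14 passed 1 CPM. By TPM, Mpo came first at 14112 ± 1158 TPM (SD, n = 3), then Elane at 7445 ± 796 TPM, Ctsg, cathepsin G, at 4124 ± 237 TPM and Prtn3, proteinase 3, at 3497 ± 201 TPM. The ranges of these 4 genes over the libraries did not overlap. The order of the last pair depended on the gene length used, since with the longest transcript in place of all exons Prtn3 had 4339 TPM and Ctsg 3121 TPM. Srgn, the proteoglycan that packs granule proteases, followed at 1493, 1300 and 1587 TPM, and Nkg7, Ms4a3 and the cystatin Cst7 had means between 480 and 653 TPM. Lyz2, the lysozyme of myeloid cells, was at 102, 111 and 126 CPM, and Prss57, a further primary granule protease, at 83.0, 76.4 and 94.3 CPM, though 40.7% of the exon bases of Prss57 overlap another gene. The 2 members near 0 were Bpi, a bactericidal protein (0.0742 CPM), and Lyz1, the lysozyme of Paneth cells (0.0365 CPM).

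In the secondary and tertiary granule list 15 of 21 measured genes passed 1 CPM. Ltf, lactoferrin, had 0.508, 0.0427 and 1.79 CPM, and Camp, the cathelicidin, had 0.445, 0.213 and 1.89 CPM. Ngp, a neutrophil granule protein, had 1.16, 0.512 and 3.53 CPM. All 3 were lowest in library 2 and highest in library 3. Members with higher levels were Hp, haptoglobin (140, 142 and 166 CPM), Anxa1, annexin A1 (135, 129 and 152 CPM), Cybb, the oxidase subunit of phagocytes (61.4, 57.9 and 74.5 CPM), and the calprotectin gene S100a8 (41.0 ± 13.6 CPM, SD, n = 3). Retnlg (0.0740 CPM), Olfm4 (0.0883 CPM) and Mmp25 (0.0375 CPM) were near 0. On the TPM scale S100a8 (151, 185 and 289 TPM) was above its partner S100a9 (40.2, 58.3 and 129 TPM) in each library.

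The promoters of the 4 leading granule genes are shown because PU.1 and C/EBP factors are known to act on such genes. The sequences are RefSeq's for GRCm38.p6, cut to the part of each RefSeq promoter window that lies before the first annotated exon base in it, and are shown 5′ to 3′ on the gene's strand with matches of the searched motifs in capitals. Mpo is given for chr11:87793534-87793580 on the plus strand, Elane for chr10:79886062-79886246 on the plus strand, Prtn3 for chr10:79879417-79879613 on the plus strand and Ctsg for chr14:56102575-56102824 on the minus strand. A GENCODE transcript of Prtn3 starts further upstream, at 79874476, so the stretch of Prtn3 lies within the span of that transcript.
Mpo: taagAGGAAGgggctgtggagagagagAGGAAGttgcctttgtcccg
Elane: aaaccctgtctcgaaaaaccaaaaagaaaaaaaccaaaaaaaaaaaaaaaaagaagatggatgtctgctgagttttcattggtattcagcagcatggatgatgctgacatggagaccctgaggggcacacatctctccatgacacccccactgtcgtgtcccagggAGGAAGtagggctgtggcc
Prtn3: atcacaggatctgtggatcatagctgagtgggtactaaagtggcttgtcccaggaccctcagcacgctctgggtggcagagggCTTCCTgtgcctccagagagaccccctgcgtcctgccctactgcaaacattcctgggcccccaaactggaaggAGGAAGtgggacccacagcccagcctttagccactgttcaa
Ctsg: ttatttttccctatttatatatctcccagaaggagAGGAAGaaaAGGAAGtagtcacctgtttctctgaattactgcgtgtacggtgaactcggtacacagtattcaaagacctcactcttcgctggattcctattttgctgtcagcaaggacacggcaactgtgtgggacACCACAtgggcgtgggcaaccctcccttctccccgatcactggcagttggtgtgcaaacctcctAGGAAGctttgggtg
The capitals mark AGGAAG, the core of PU.1 sites, or its reverse complement in Prtn3, and in Ctsg also the reverse complement of TGTGGT, the RUNX core. Motifs were searched on both strands over the full windows of 250 bases before to 50 bases after each start. The start is that of the RefSeq window, which for Mpo, Elane and Prtn3 lies past the first annotated GENCODE exon base. In these genes the last 203, 65 and 53 bases before that start are left out of the printed stretch. AGGAAG lay 246, 223 and 180 bases before the start of Mpo, 84 bases before that of Elane, 167 and 94 bases before that of Prtn3, and 215, 206 and 15 bases before that of Ctsg. The RUNX core of Ctsg lay 79 bases before its start. The match of Mpo at 180 bases lies past the first annotated exon base and so outside the printed stretch.

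AGGAAG was present in 13 of the 14 primary granule genes with a promoter in the table, which is 92.9%, and in 35.1% of the first windows of 27025 genes. Srgn was the member without it. Over all 32851 windows of that length the share was 35.4%. The C/EBP core TTGCNNAA was in 3 of these 14 genes and in 10.8% of all windows, and the RUNX core in 5 of 14 and in 16.8% of all windows. The GATA core AGATAA, in 11.2% of all windows, was in none of the 14. In other lists AGGAAG was in 8 of 9 lineage antigens, 9 of 14 gate genes, 10 of 16 T and NK genes, 12 of 24 genes of other tissues, 13 of 19 secondary granule genes and 3 of 17 red cell genes. TTGCNNAA was in 9 of the 19 secondary granule genes, and AGATAA in 7 of the 17 red cell genes and 8 of 23 mast cell, basophil and eosinophil genes. These are counts of letters in a window and describe no binding.

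Elane and Prtn3 lie side by side, and some of their neighbours were hardly detected. These neighbouring genes were chosen after the values had been seen. Prtn3 (1656, 1691 and 1805 CPM) starts 11.8 kb before Elane on chromosome 10 by its outermost GENCODE start, and Cfd, complement factor D, a serine protease that starts 4.61 kb after it, had 0.275, 0.277 and 0.491 CPM. Per length, Cfd was at 1.33 TPM and Elane at 7445 TPM. Ptbp1, a splicing regulator 31.8 kb away, had 929 ± 13.3 CPM, Misp 0.0470 CPM and Med16, a Mediator subunit, 95.9 ± 3.02 CPM (SD, n = 3). Lppr3, at 203 ± 20.3 CPM, shares exon bases with Prtn3 on the other strand, and the 2 cannot be fully separated without strand. Around Ctsg on chromosome 14, the basophil protease gene Mcpt8, 17.7 kb away by the genes' lower coordinates, had 45.2, 33.8 and 41.7 CPM. The proteases Cma2, Mcpt1, Mcpt9, Gzmg, Gzmn and Gzmf of the same cluster had 0 counts in all 3 libraries, and Gzmc had 0.539 CPM in the mean.

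**Figure D2:**
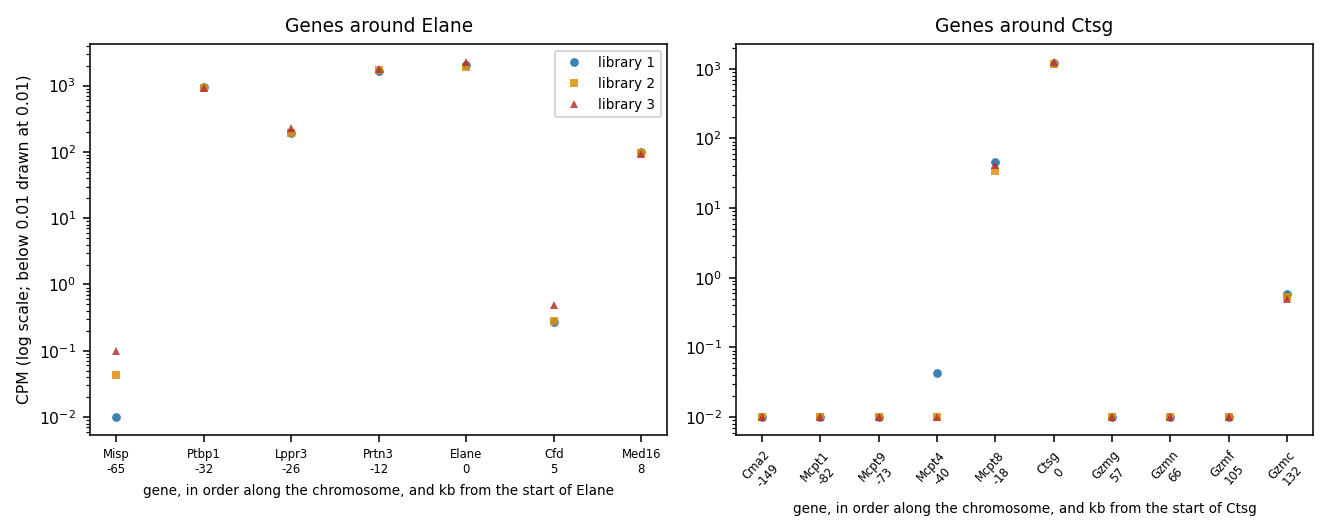
CPM in each of the 3 wild type libraries (y axis, log scale) of the genes named in the text around Elane and around Ctsg. They stand in their order along the chromosome with the distance in kb from Elane or Ctsg. Distances run between the lower coordinates of the genes, which for Ctsg on the minus strand is the gene's end. Prtn3 and Elane lie above 1600 CPM while Cfd between Elane and Med16 stays below 0.5 CPM, and of the genes drawn beside Ctsg only Mcpt8 exceeds 1 CPM.

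Of the surface proteins that define the gate and its stem cell fraction, all 19 passed 1 CPM. The highest by TPM were Fcgr3 (204 ± 13.6 TPM), the Fc gamma receptor that separates granulocyte and monocyte progenitors, Cd93 (201 ± 17.3 TPM), Cd48 (181 ± 16.5 TPM), Cd34 (178 ± 15.1 TPM) and Kit (158 ± 19.9 TPM, SD, n = 3). The ranges of neighbours in this order overlapped. Cd34 had 312 TPM with its longest transcript as length, which would put it first. Genes that mark the stem cell fraction had few counts: Ly6a, which encodes Sca-1, had 2.05, 2.73 and 3.36 CPM, Slamf1, CD150, had 1.29, 1.64 and 1.55 CPM, and Procr, the protein C receptor, had 3.34, 4.74 and 4.86 CPM. Each of these was lowest in library 1.

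Of 41 growth factor and cytokine receptors 38 passed 1 CPM, and Fas (0.571 CPM), Il2rb (0.855 CPM) and Ghr (0.639 CPM) did not. Ifngr1, the ligand-binding chain for interferon gamma, was highest at 416, 376 and 405 TPM, above the range of every other receptor of the list. Its partner chain Ifngr2 was at 22.3, 22.6 and 22.9 TPM. Kit (149, 144 and 181 TPM) and Tnfrsf1a, a TNF receptor (151, 162 and 159 TPM), came next with overlapping ranges.

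Among the colony-stimulating factor receptors, Csf3r for G-CSF had 111, 123 and 166 TPM, Csf2ra for GM-CSF 116, 119 and 155 TPM, and Csf1r for M-CSF 74.1, 81.7 and 92.0 TPM. All 3 were highest in library 3. The beta chain Csf2rb, shared by the receptors for GM-CSF, IL-3 and IL-5, had 51.0 ± 6.38 TPM, and its mouse relative Csf2rb2 had 8.16 ± 1.46 TPM. The alpha chain for IL-3, Il3ra, was at 43.3 ± 6.44 TPM and that for IL-5, Il5ra, at 1.24 ± 0.152 TPM (SD, n = 3). The 2 close beta chain genes may share reads. Epor, the erythropoietin receptor, went the other way, at 64.9, 73.7 and 45.0 TPM with the lowest value in library 3. Flt3, the receptor of multipotent and lymphoid-primed progenitors, had 66.0, 63.5 and 79.2 TPM, and Il7r, needed for lymphoid development, 0.810, 0.898 and 1.15 TPM.

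Receptors that are better known in other tissues were present too. Met, the hepatocyte growth factor receptor, had 51.1, 58.9 and 55.6 CPM. Pdgfrb, a receptor of mesenchymal cells, had 26.9, 31.6 and 39.0 CPM. In the list of stroma and endothelium genes, 5 of 20 passed 1 CPM. They were Pecam1 (103 CPM), which blood cells also express, Pdgfrb, Emcn (2.31 CPM), Kdr (1.33 CPM) and Col1a2 (1.80 CPM). The stroma genes Pdgfra (0.0295 CPM), Lepr (0.0670 CPM) and Adipoq (0.0142 CPM) were near 0, and Col3a1 and Lum had 0 counts. Col1a1, a collagen of bone, had 2.24, 0.128 and 0.147 CPM and was thus high in library 1 alone. Igf1r (201, 183 and 231 CPM) and the Notch receptors Notch2 (205, 234 and 231 CPM) and Notch1 (133, 141 and 168 CPM) were among the receptor genes with most counts.

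Chemokine and adhesion receptors showed 1 dominant member in several families. These families were formed from gene symbols after the values had been seen. Cxcr4, which holds progenitors in the marrow by binding CXCL12, had 148, 144 and 141 CPM and 98.2% of the summed TPM of 6 CXC chemokine receptors. Ccr2, by which monocytes and their progenitors leave the marrow, had 52.6, 53.2 and 58.0 CPM and 89.5% of the summed TPM of 10 CC receptors. Tlr2, a receptor for bacterial lipoproteins, had 47.9, 45.0 and 53.8 CPM and 79.2% of the summed TPM of 12 Toll-like receptors, and Tlr4, the receptor for endotoxin, had 4.81, 4.59 and 6.09 CPM. Per length, the coreceptor Cd14 (91.6 TPM) and the adaptor Myd88 (71.4 TPM) lay above Tlr4 (3.28 TPM). Among integrins, Itgb1 made up 65.9% of the beta chains' TPM, while the alpha chains were led by Itga2b (106 TPM), Itgal (95.9 TPM) and Itga4 (89.9 TPM). Spn, the leukosialin CD43, led the adhesion list at 500, 472 and 498 CPM.

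Of 29 cytokines and ligands, 17 passed 1 CPM. Mif, a constitutively made inflammatory mediator, was highest at 1118, 1125 and 1027 TPM, and Tgfb1, which restrains stem cell cycling, followed at 294, 294 and 311 TPM. The chemokines Ccl3 (41.4, 54.9 and 49.9 CPM), Ccl9 (122, 109 and 143 CPM) and Ccl4 (21.3, 23.0 and 22.3 CPM) were detected, as were Osm, oncostatin M (128, 115 and 73.1 CPM), and Angpt1, the ligand of Tek (156, 124 and 167 CPM). Osm was lowest in library 3 and Angpt1 in library 2. Csf1 for Csf1r (14.5, 14.3 and 17.4 CPM) and Flt3l for Flt3 (7.11 CPM in the mean) were also detected. Tnf for Tnfrsf1a had 60.3 TPM and Il6 had 4.64 TPM in the mean. Some other ligands for receptors of these cells were near 0. Kitl, the ligand of c-Kit, had 0.0376 CPM, Csf2 0.0295 CPM and Il3 0.00706 CPM in the mean, and Thpo and Epo had 0 counts in all 3 libraries, which allows up to 0.0222 CPM over the group. Cxcl12, the ligand of Cxcr4, had 1.12, 0.448 and 0.491 CPM.

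All 28 stem and multilineage transcription factors passed 1 CPM. Lmo2, the bridging protein of the TAL1 complex, was first at 519, 509 and 559 TPM. Egr1 (387, 358 and 357 TPM) and Myb (314, 320 and 346 TPM) came next, and neither range overlapped that of the gene after it. This order depended on the gene length, since with the longest transcript Myb had 580 TPM, Lmo2 493 TPM and Egr1 270 TPM. A group with overlapping ranges followed: Etv6 (255 ± 36.9 TPM), Lyl1 (248 ± 14.0 TPM) and Myc (245 ± 5.47 TPM). Gata2 was at 110, 112 and 134 TPM, Fli1 at 93.8, 91.6 and 104 TPM, Tal1 at 84.2, 98.5 and 83.5 TPM, Erg at 62.6, 57.0 and 77.0 TPM and Runx1 at 54.1, 57.4 and 62.1 TPM. Of these, Gata2 lay above the range of Fli1.

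Some factors tied to stem cells had few counts. Mecom, required for stem cell upkeep, had 8.15, 6.51 and 7.81 CPM and Prdm16 5.82, 6.53 and 7.61 CPM. Hlf, by contrast, had 41.4, 40.7 and 54.5 CPM, and Meis1, the HOX cofactor, 56.3, 57.7 and 67.7 CPM. Among HOX genes, Hoxa9 led its cluster with 13.8, 13.7 and 15.6 TPM, followed by Hoxa7 (10.8 TPM) and Hoxa5 (9.93 TPM), and 7 of 11 HoxA genes passed 1 CPM. In the HoxB cluster, Hoxb4 held 76.8% of the summed TPM and 2 of 10 genes passed. None of the 9 HoxC and 9 HoxD genes did, and all 9 of each cluster stayed below 0.1 CPM.

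In the myeloid list 19 of 20 factors passed 1 CPM, Batf3 (0.119 CPM) being the exception. Cebpa had 241, 264 and 297 TPM, Spi1, which encodes PU.1, 222, 236 and 260 TPM, and Cebpb 246, 233 and 219 TPM. Their ranges overlapped, so the 3 could not be ordered. Irf8, which directs monocyte and dendritic fates, was at 148, 155 and 160 TPM. Gfi1, needed for neutrophils, was at 56.7, 59.6 and 75.4 TPM and Cebpe, which drives secondary granule genes, at 94.2, 91.7 and 113 TPM. Both were highest in library 3. Klf4, a monocyte factor that is also an immediate early gene, had 146, 130 and 83.9 TPM, lowest in library 3. Irf4, a factor of dendritic cells and late B cells, was low at 1.59, 1.13 and 1.70 TPM. Stat5b (120 ± 7.39 TPM) exceeded its close paralog Stat5a (64.1 ± 1.83 TPM, SD, n = 3), Stat3 had 49.0 ± 4.45 TPM, and Zeb2 (252, 250 and 243 CPM) varied little.

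All 20 erythroid and megakaryocyte factors passed 1 CPM. Beside Lmo2 and Myb, the GATA cofactor Zfpm1, known as FOG1, had 228, 290 and 207 TPM. Klf1, the red cell factor, had 142, 186 and 99.8 TPM, Gfi1b 93.9, 117 and 64.4 TPM, and Gata1 90.5, 103 and 68.5 TPM. These 4 were each highest in library 2 and lowest in library 3. Nfe2, of both red cells and platelets, differed from them at 123, 138 and 144 TPM. Gata2 exceeded Gata1 without overlap of their ranges, by a mean of 118 against 87.4 TPM, and this order held with the longest transcript (132 against 82.2 TPM). Gata3, a T cell factor, was at 1.22 TPM, and Gata4 and Gata5 had 0 counts. Within the RUNX family, Runx3 (122 ± 4.08 TPM) was above Runx1 (57.9 ± 4.07 TPM) and Runx2 (11.7% of the summed TPM of the family with Cbfb). The gap between Runx3 and Runx1 narrowed with the longest transcript, to 115 against 87.2 TPM.

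Of 20 lymphoid factors, 9 passed 1 CPM. The 2 highest, Ikzf1, or Ikaros (270, 272 and 254 TPM), and Tcf3, the E protein E2A (235, 241 and 227 TPM), are also used by stem and myeloid cells. Id3, Zbtb16, Pou2f2 and Foxo1 lay between 7.29 and 16.6 TPM. The T cell factors Tcf7 (2.81 CPM) and Gata3 (1.38 CPM) passed at low levels. Ebf1 of B cells, at 1.08, 0.661 and 1.03 CPM, missed 1 CPM in the mean, and without library 2 10 of the 20 passed. Pax5 (0.253 CPM) of B cells, Bcl11b (0.163 CPM) of T cells and Eomes (0.134 CPM) and Tbx21 (0 counts) of NK and T cells were below 1 CPM. Ikzf1 held 84.6% of the summed TPM of its 5-member family and Tcf3 84.7% of that of the 3 E proteins.

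**Figure D3:**
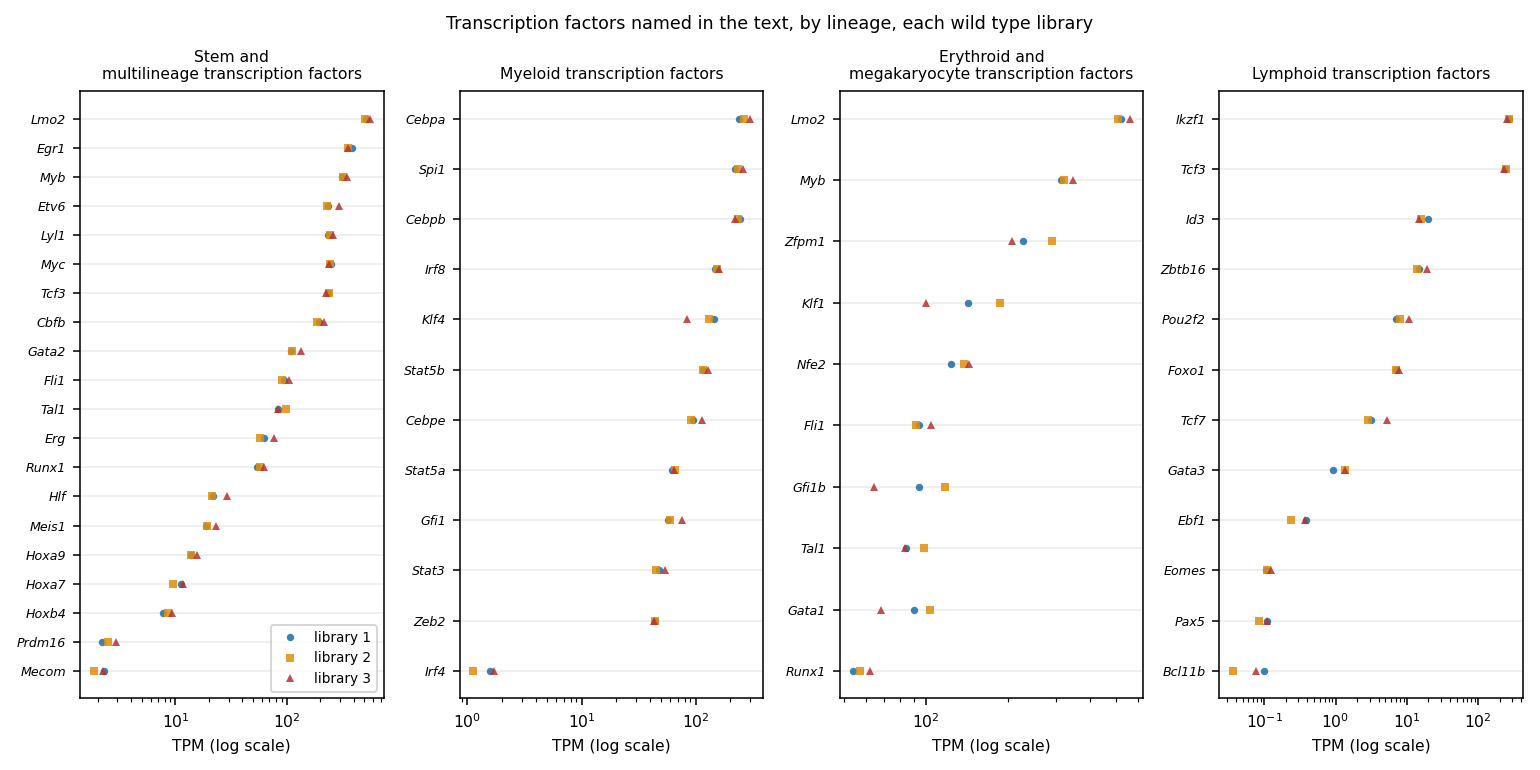
TPM (x axis, log scale) in each of the 3 wild type libraries for the stem, myeloid and erythroid or megakaryocyte factors named in the text with at least 1 CPM and the named lymphoid factors with at least 0.01 CPM. Klf1, Gfi1b and Gata1 show their lowest value in library 3 (triangles), and in the lymphoid panel Ikzf1 and Tcf3 lie above 200 TPM while Pax5 and Bcl11b lie near 0.1 TPM.

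Lymphoid effector genes were read by detection in the same way. Of 22 B lymphoid genes, 8 passed 1 CPM (13 at 0.5 CPM and 5 at 2 CPM). Dntt, the terminal transferase of the earliest lymphoid progenitors, had 55.6, 39.8 and 62.2 CPM, while Rag1 (0.974, 0.683 and 0.957 CPM) and Rag2 (0.392 CPM), which cut the receptor genes, stayed below 1 CPM. Cd79b had 15.7, 16.4 and 18.9 CPM, its partner Cd79a 2.33, 1.64 and 2.58 CPM, and Jchain 26.9 ± 9.88 CPM (SD, n = 3). Ms4a1, CD20 of mature B cells, had 0 counts. Of 26 T and NK genes, 10 passed. By counts the highest was Nkg7 (169, 160 and 178 CPM), which is also on the primary granule list, then Lat, a signalling adaptor also of mast cells and platelets (16.6 ± 1.52 CPM), and Gzmb, granzyme B (10.7, 8.60 and 14.9 CPM). Cd3d (0.0507 CPM) and Cd2 (0.0164 CPM) were near 0 and Cd3g and Cd8b1 had 0 counts.

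Monocyte and dendritic genes were detected in 20 of 28 cases. After Ly6c2, the highest by counts were F13a1, coagulation factor XIII of monocytes (431, 429 and 449 CPM), Emb, embigin (392, 375 and 413 CPM), Csf1r and Ms4a6c (101 ± 2.42 CPM, SD, n = 3). The complement genes of tissue macrophages C1qa (0.397 CPM), C1qb (0.271 CPM) and C1qc (0.487 CPM), the scavenger receptor Marco (0.00711 CPM) and the dendritic gene Siglech (0.143 CPM) did not pass. Of the MHC class II genes, Cd74 was at 27.2, 20.2 and 28.8 CPM and H2-Ab1 at 34.1, 23.9 and 29.6 CPM, and both were lowest in library 2.

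Basophil, mast cell and eosinophil genes were present in 17 of 26 cases. Prg2, the eosinophil major basic protein, was at 1134, 1039 and 998 TPM, the highest of the list and above the range of the next gene. Epx, eosinophil peroxidase, had 94.2, 93.7 and 81.1 CPM, and Hdc, which makes histamine, 135, 123 and 159 CPM. The basophil proteases Prss34 (211, 133 and 153 TPM) and Mcpt8 (158, 119 and 149 TPM) and the carboxypeptidase Cpa3 (122, 111 and 166 TPM) overlapped in range. These 3 held nearly all TPM of the 11 mast cell protease genes, with shares of 37.6%, 32.2% and 30.1%, though close paralogs among the mast cell proteases may share reads. The proteases of mature mast cells, Mcpt4 (0.0141 CPM), Tpsb2 (0.0223 CPM) and Cma1 (0.160 CPM), and the eotaxin receptor Ccr3 (0.0621 CPM) were low.

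The red cell list was detected throughout, with 26 of 26 measured genes at 1 CPM or more. Car2 and Car1, the carbonic anhydrases, had 710, 747 and 456 CPM and 586, 649 and 368 CPM. Aqp1, a water channel, had 395, 468 and 275 CPM, Cd24a 388, 360 and 332 CPM, and Tfrc, the transferrin receptor, 315, 323 and 274 CPM. All 5 were lowest in library 3. Genes of late red cell stages were low per length. Slc4a1, the band 3 anion exchanger, had 1.80, 1.86 and 1.85 TPM and Epb4.2, protein 4.2, had 4.24, 4.94 and 2.66 TPM. Ermap, an erythroid membrane protein, had 147, 159 and 90.4 TPM.

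For haem synthesis and iron handling, 16 of 16 genes passed 1 CPM. The housekeeping enzyme Alas1 had 277, 275 and 305 CPM and the red cell enzyme of the same step, Alas2, 1.14, 1.30 and 1.28 CPM. By TPM the 2 were at 163 ± 11.6 and 1.82 ± 0.135 TPM (SD, n = 3). Cpox, a further enzyme of the pathway, was at 184, 218 and 134 CPM and lowest in library 3. The ferritin chains Ftl1 (1121, 1144 and 1063 CPM) and Fth1 (949, 958 and 761 CPM) were the highest of the list per length too, at 2919 and 903 TPM. None of 12 globin rows reached a mean of 0.1 CPM. The adult rows Hba-a1, Hba-a2, Hbb-bs, Hbb-bt, Hbb-b1 and Hbb-b2 had 0 counts, and Hbq1b was highest at 0.106, 0.0640 and 0.0491 CPM. The adult globin genes are near-identical copies, the treatment of reads that match several genes is not given in the sources used here, and its part in these 0 counts was not tested.

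Megakaryocyte and platelet genes passed 1 CPM in 22 of 27 cases. Plek, pleckstrin (285, 243 and 294 CPM), is shared with other blood cells. The next by counts were Thbs1, thrombospondin (225, 138 and 131 CPM), Itga2b, platelet CD41 (163, 161 and 165 CPM), F2r, a thrombin receptor (138, 123 and 126 CPM), and Vwf, von Willebrand factor (91.1, 82.3 and 66.4 CPM). Pf4, platelet factor 4, had 184, 174 and 126 TPM, whereas the platelet chemokine Ppbp had 3.97, 3.24 and 1.62 TPM. Itga2b varied by 1.15% of its mean, no more than the median counting error of 1.16% for genes at 100 to 1000 CPM. Thbs1 was high in library 1. Among late platelet genes, Tubb1 (0.343 CPM), Gp6 (0.0496 CPM) and Myl9 (0.0295 CPM) did not pass, while Gp9 (3.70, 3.95 and 3.95 CPM) and Gp5 (8.68, 11.4 and 7.98 CPM) did.

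All 18 S phase and all 18 G2 and M phase genes passed, with medians of 264 and 105 CPM. The replication clamp Pcna had 482, 446 and 435 CPM, the helicase subunit Mcm6 697, 705 and 697 CPM, and the proliferation antigen Mki67 933, 1017 and 880 CPM. Among the D cyclins Ccnd2 had 70.8 ± 10.1 TPM, Ccnd3 54.3 ± 4.74 TPM and Ccnd1 19.5 ± 1.95 TPM (SD, n = 3), with no overlap of their ranges. With the longest transcript Ccnd3 (90.6 TPM) was above Ccnd2 (77.3 TPM), so the order of these 2 depends on the length. The inhibitors differed: Cdkn1a was at 191, 181 and 169 CPM, Cdkn1b at 58.5, 56.4 and 56.2 CPM and Cdkn1c, associated with resting stem cells, at 1.63, 1.05 and 1.25 CPM, while Cdkn2a (0.0142 CPM) and Cdkn2b (0.0212 CPM) were near 0. Of 36 genes mutated in myeloid neoplasms, 34 passed. Npm1 led with 1713, 1637 and 1436 CPM. Asxl1, whose mutant form the other genotype of the study carries, had 171, 166 and 165 CPM, Asxl2 89.8, 91.6 and 93.9 CPM and Tet2 55.6, 49.0 and 78.1 CPM. Setbp1 (0.188 CPM) and Wt1 (0.00818 CPM) did not pass.

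Immediate early genes, which cells switch on within minutes of a stimulus, passed 1 CPM in 25 of 25 cases. By TPM, Jund (1753 TPM), Jun (1564 TPM) and Fos (1384 TPM) led the list with overlapping ranges. Jun had 1593, 1568 and 1088 CPM, Fos 1202, 1184 and 396 CPM, Nr4a1 905, 1018 and 977 CPM and Fosb 1081, 985 and 613 CPM. Together the 25 genes summed to 11239, 10733 and 7887 CPM. Fos, Dusp1 (309, 314 and 154 CPM) and Atf3 (269, 256 and 114 CPM) were at similar levels in libraries 1 and 2 and much lower in library 3. Nr4a1, Egr1 (496, 458 and 448 CPM) and Fosl2 (264, 270 and 307 CPM) did not share that drop. How long cells were handled before lysis is not given in the sources used here, and its part in these levels was not tested.

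The most variable genes at 10 CPM or more were in part carried by 1 library each. Dsp, desmoplakin, had 23.8, 3.11 and 4.84 CPM, and Inppl1, a lipid phosphatase, 7.01, 32.0 and 7.04 CPM. The nuclear RNAs Neat1 (28.1, 21.9 and 85.1 CPM) and Kcnq1ot1 (22.7, 21.7 and 51.0 CPM), the pseudogene Pisd-ps3 (89.2, 125 and 272 CPM) and Ralgps2 (25.1, 25.6 and 65.0 CPM) were high in library 3, as was Rn45s, the precursor of ribosomal RNA, at 1168, 1026 and 2035 CPM. S100a9, Fbp1 and Idi1 were also highest there, and Slc15a2, Fos and Hspa1a lowest. In all, 70 of 8916 genes at 10 CPM or more varied by over 30% of their mean, where the median of genes at 10 to 100 CPM was 5.95% and the counting error 2.45%. At the other end, Chd4, a chromatin remodeller, had 921, 921 and 920 CPM and Tm2d2, Emc10 and Cyth2 were as even, but these spreads lie under the counting error and rest on the scaling.

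Library 3 differed in some lists and not in others. Its values are set against the mean of libraries 1 and 2. In 32% of the 11676 genes at 1 CPM or more it was the lowest of the 3 libraries, and in 45.2% the highest. With TMM scaling, which adjusts for the composition of a library, these shares were 42.8% and 35.1%, so both scalings are given. Of the 26 red cell genes, 23 were lowest in library 3 (24 with TMM), and their median was 63.1% of the mean of the other two (61.0% with TMM). Their summed level was 3825, 4116 and 2781 CPM. Rhd (54.1, 60.9 and 30.4 CPM) and Rhag (49.5, 65.8 and 31.4 CPM), proteins of the red cell membrane, were lower there, and Apoe (140, 149 and 159 CPM) was not lower. Haem synthesis genes were lowest there in 12 of 16 under both scalings. Erythroid and megakaryocyte factors as a list were lowest in library 3 in 7 of 20 and highest in 10 (8 and 7 with TMM), and myeloid factors lowest in 8 of 19 and highest in 9 (9 and 7 with TMM). Monocyte and dendritic genes were lowest there in 5 of 20 and highest in 10 under both scalings.

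Granule genes, and several other lists, went the other way in library 3. Of the primary granule genes at 1 CPM, 14 of 14 were highest in library 3 under both scalings, with a median of 112% of the other two (109% with TMM). For secondary and tertiary granule genes it was 14 of 15 under both scalings, with a median of 151% (146% with TMM). T and NK genes were highest there in 9 of 10 under both scalings (median 126%, or 122% with TMM). B lymphoid genes were so in 6 of 8 (128% or 124%) and lineage antigens in 5 of 7 (130% or 126%). Growth factor and cytokine receptors were highest there in 22 of 38 (20 with TMM), at a median of 115% (111% with TMM). The median of all genes at 1 CPM or more was 102% with TMM. Stem and multilineage factors were highest there in 21 of 28 (20 with TMM) and the gate and stem surface genes in 14 of 19 (12 with TMM). Among G2 and M phase genes 17 of 18 were lowest there (18 with TMM), at a median of 82.1%, whereas S phase genes were lowest in 9 of 18 by the column sum and 15 of 18 by TMM, at a median of 97.3% or 94.0%. Megakaryocyte genes were lowest in 12 of 22 (15 with TMM), and immediate early genes in 17 of 25 (19 with TMM), at a median of 82.2%. Library 3 was also the shallowest, and had the most of Rn45s and Neat1. Their part in these differences was not tested, and with 1 library on that side there is no replicate of it.

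**Figure D4:**
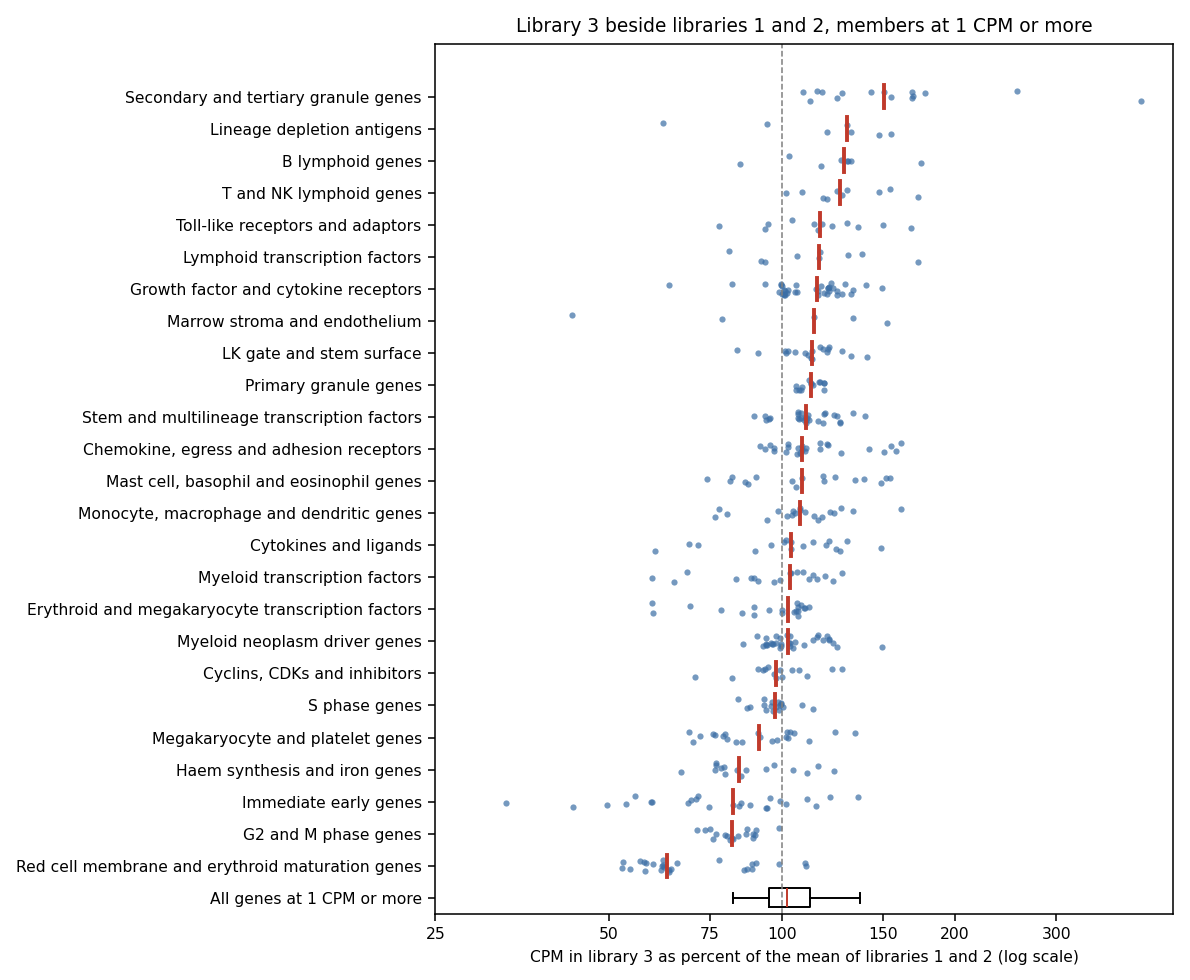
CPM in library 3 as a percent of the mean of libraries 1 and 2 (x axis, log scale) for list genes at 1 CPM or more, 1 point a gene, with the median as a red bar, and for all 11676 such genes as a box of the quartiles with whiskers from the 5th to the 95th percentile. Secondary granule genes lie to the right (median 151%) and red cell genes to the left (median 63.1%) of 100%.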

How the data were processed

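Per the labels' protocols, 200 ng of total RNA a sample was made into libraries with the NEBNext Ultra kit and read as 124 bp paired ends. Per the submitters' processing notes, HISAT2 2.0.4 and the build mm10 were used. Which program counted the reads, with which annotation, strand setting and handling of shared reads, is not given in the sources used here. Deposited by the authors were whole-number counts per gene symbol, not normalized. Columns were assigned to samples by genotype and number.

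CPM is the count as a share of the column sum, per 1e6 counts. TPM used the union of exons in GENCODE M21, matched for 23334 symbols directly and 649 through a synonym, and genes without a length (0.482% of counts) have no TPM. Of 406 list genes at 1 CPM, 9 share more than 20% of their exon bases with another gene, and 4 list genes have no row and are not analysed here. Sums, ranks and spreads were computed with Python 3.11.15, pandas 2.3.3 and numpy 2.4.6. The biological coefficient of variation is the square root of the common dispersion of edgeR 4.0.16 in R 4.3.3, and DESeq2 1.42.0 gave an alternative. The spreads and the edgeR value were tested on simulated data. Figures used matplotlib 3.10.9. No test was made, since there is 1 group. The spread is that between 3 samples, which the labels call independent.

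The members, gene lists and tests were chosen with earlier results of these data known. Named genes were drawn from the 25 highest by CPM and by TPM, the 8 highest of each list and all receptors and factors at 1 CPM. The 15 most and 10 least variable genes at 10 CPM, those near 0 and the 6 markers were drawn on too. Not every gene of these sets is reported by name. Genes outside this rule, the symbol families and the neighbours of Elane and Ctsg were named after their values were seen. Some list genes are counted in the lists but not reported here by name. Alternatives were other scalings, other levels and filters, other lengths, ribosomal protein genes left out and each library left out.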

Additional observations from a re-analysis of the deposited data

How the results depend on the processing

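The total number of genes at 1 CPM or more, and that of list genes among them, stayed within 1.5 times under each scaling, level and filter tried. It ranged from 10940 (a level of 2 CPM) to 13030 (edgeR's filterByExpr) around 11676, and from 383 to 448 around 406. The counts of 5 lists moved by more. B lymphoid genes went from 8 to 13 (0.5 CPM), 5 (2 CPM) or 17 (filterByExpr), lymphoid factors from 9 to 15 (filterByExpr) and lineage antigens from 7 to 4 (2 CPM). Stroma and endothelium went from 5 to 9 (0.5 CPM), 3 (2 CPM) or 8 (filterByExpr), and genes of other tissues from 0 to 2 (0.5 CPM) or 4 (filterByExpr). Leaving out each library in turn gave 11614 to 11713 genes, 405 to 408 list genes, 17.4% to 17.6% of counts in the 100 most abundant genes, 25 of 25 shared leaders by TPM, and a biological coefficient of variation of 6.70% to 11.2%. The lowest, 6.70%, was without library 3. With ribosomal protein genes left out, the share of the 100 most abundant genes was 16.5% in place of 17.5%. By the median gene-wise dispersion of DESeq2 the coefficient of variation was 5.40% in place of 9.52%, a median over genes rather than a common value. With the longest transcript as length, 21 of the 25 leaders by TPM were shared. Spread under other scalings was computed for 54 genes, which were those highest by CPM, the most and least variable and the markers. Of these, 18 had a coefficient of variation that moved by over 1.5 times under TMM or DESeq2 scaling, including all 10 of the least variable. Leaving Rn45s out of the column sums, chosen after seeing the data, gave 11677 genes. Below about 1 CPM counting error made up most of the spread, with a median coefficient of variation of 30.4% against 26.5% from counting alone at 0.1 to 1 CPM.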
